A study of Mus musculus with 9 samples.

Results

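The genes described here make, bind, sense and degrade retinoic acid, the active derivative of vitamin A. They are 10 genes taken by symbol from the 45535 rows that carry one: the retinal dehydrogenases Aldh1a1, Aldh1a2 and Aldh1a3, the retinol and retinal enzymes Rdh10 and Dhrs3, the nuclear receptor genes Rara, Rarg and Rxra, the carrier Crabp2 and the degrading enzyme Cyp26b1. Each of the 10 symbols matched 1 row. RNA came from CD103+ DCs (dendritic cells) of the lung of C57/BL6j mice that had received bleomycin for 7 days, an agent that injures the lung and is followed by fibrosis. Cells were isolated with magnetic beads after collagenase digestion and either lysed directly (before culture, 5 samples) or kept for 18 h in RPMI medium with fetal serum and antibiotics (after culture, 4 samples). Both groups had been exposed to bleomycin, digestion and bead selection, and fetal serum itself can carry retinol. The labels do not tie samples to single mice, so p-values measure the spread between these samples, which may be partly technical.

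Retinoic acid is made in a pair of oxidation steps. Retinol is first oxidised to retinal, mainly by the enzyme encoded by Rdh10, a step that Dhrs3 reverses, and retinal is then oxidised irreversibly by ALDH1A enzymes. Retinoic acid binds RAR receptors, which act on DNA as partners of RXR receptors, and CYP26 enzymes clear it. Dendritic cells of the gut and lung that express Aldh1a2 are known for giving retinoic acid to T cells, which influences where those T cells home and whether they become regulatory.

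Values are normalized read counts, that is, reads per gene divided by 1 factor per sample. Depth in named rows ran from 14.7 M to 28.8 M reads before and from 26.0 M to 35.3 M reads after culture, and a single read equalled 0.758 to 1.79 in normalized counts, depending on the sample. Of the 11 marker genes of type 1 conventional dendritic cells, the cells that CD103 mostly marks in lung, all were read in both groups. Itgae, which encodes CD103, averaged 18138 ± 1537 (SD, n = 5) in uncultured and 1727 ± 335 (SD, n = 4) in cultured cells. Replicate 4 before culture stood apart in base composition: its log2 values deviated from the group by −0.212 for every 10 percentage points of GC, against 0.0326 to 0.0811 in the other 4. Genes were tested with limma on log2(value + 1) where the mean normalized count was at least 10, with Benjamini-Hochberg adjustment over all 18202 tested genes and a threshold of 0.05.

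After culture, the dehydrogenase genes Aldh1a1 and Aldh1a2, the receptor genes Rara and Rxra and the degrading enzyme gene Cyp26b1 were lower, and the dehydrogenase gene Aldh1a3 was higher. Of the 10 genes, 9 were tested (Crabp2 lay under the minimum mean), and 5 of these fell, 1 rose and 3 did not pass the threshold. The falls were Cyp26b1 (18.8-fold), Aldh1a1 (8.95-fold), Rara (3.68-fold), Aldh1a2 (1.87-fold) and Rxra (1.31-fold), and the rise was Aldh1a3 (2.09-fold), each as a ratio of group means. Over all tested genes 68.8% passed the threshold, 34.2% higher and 34.6% lower, so that 6 called genes of 9 is near the share of any genes in this comparison. The median log2 fold change was −0.41 over the 9 genes and 0.0065 over all tested genes. Values of the groups did not overlap for 4 of the 9 tested genes and for Crabp2, where 57.3% of all tested genes had no overlap (28.7% higher and 28.6% lower after culture).

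Retinoid genes are also active in stromal, endothelial and epithelial cells of the lung, whose markers moved with the falls above. All 10 fibroblast, all 8 mesothelial, all 10 endothelial and all 11 alveolar epithelial markers were lower after culture. Summed normalized counts went from 17257 to 30939 before to 2662 to 5069 after culture for fibroblast markers, and from 1349 to 1922 to 258 to 346 for mesothelial markers. For endothelial markers they went from 26120 to 37902 before to 3387 to 4500 after, and for alveolar epithelial markers from 25307 to 42359 to 4598 to 8587. Each of these markers was read above 3 reads in at least 1 sample of each group. In these bulk samples fewer cells of a type and less RNA per cell cannot be told apart, and the part of these cells in the lower values of Rara, Aldh1a1, Aldh1a2, Cyp26b1 and their relatives was not tested. Markers of mature dendritic cells moved the other way, with all 12 higher, Ccr7 among them (7918 ± 372 to 53005 ± 2238, SD), while 8 of 11 markers of type 1 conventional dendritic cells were lower and 3 higher. Alveolar macrophage markers, at 25536 to 36035 before and 19623 to 25046 after culture, had 6 genes lower and 2 higher of 10. Of 8 markers of type 2 conventional dendritic cells, 5 were lower and 2 higher. Lower without any higher were 5 of 10 markers of monocytes and interstitial macrophages and 5 of 6 of NK cells. Of the 7 tested markers each of neutrophils and of airway epithelium, 6 were lower and 1 higher. T cell markers (2 of 8 lower, 1 higher), B cell markers (2 of 6 lower, 1 higher) and those of mast cells and basophils (1 of 2 tested lower) had few calls.

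**Figure D1:**
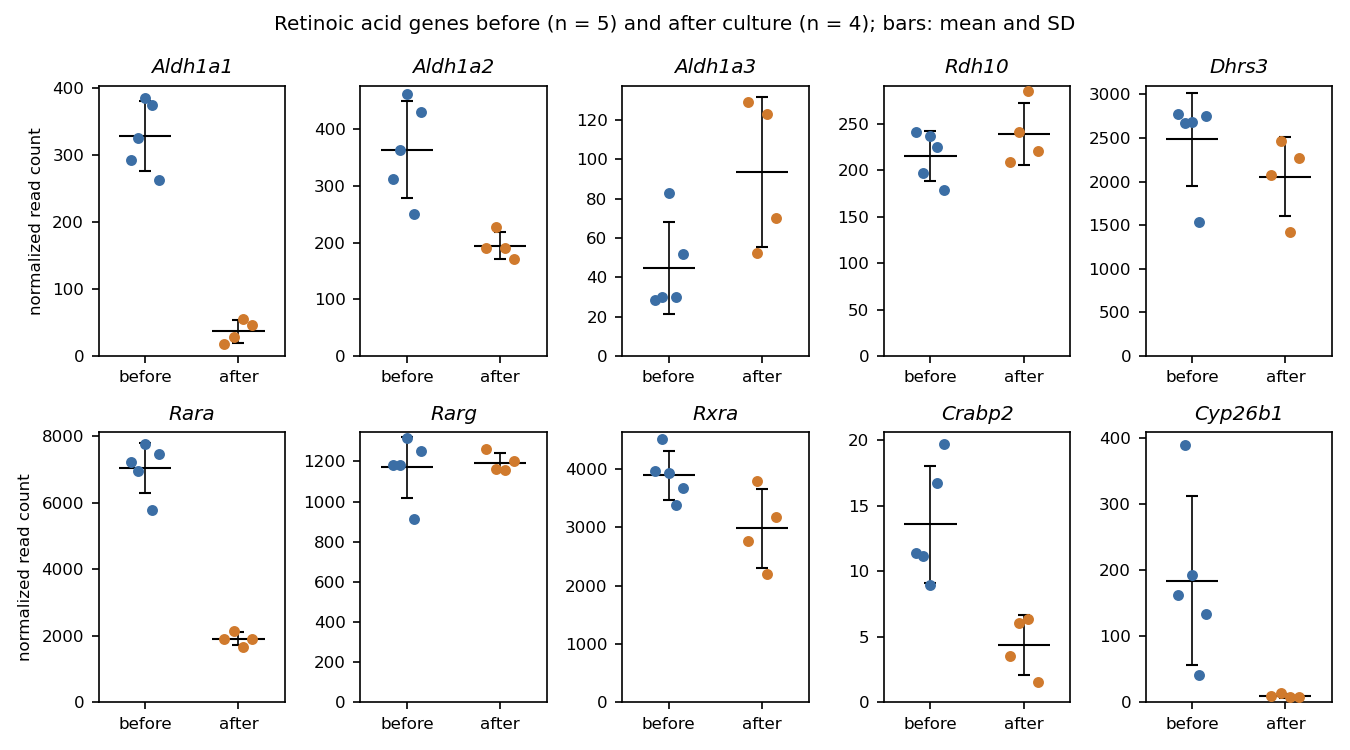
Normalized read count (linear axes starting at 0) of each of the 10 genes in the 5 samples before and the 4 samples after culture, 1 point per sample, with horizontal lines at the mean and bars of 1 SD. Points of the groups are fully separated for Aldh1a1, Aldh1a2, Rara, Crabp2 and Cyp26b1, and the lowest Dhrs3 value before culture (1539) sits far below the other 4.

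Aldh1a2 encodes the retinal dehydrogenase best known from dendritic cells. It lies on chromosome 9 (71215789 to 71296243, plus strand, GRCm38), and none of the 50-base windows of its longest transcript occur in another gene. Its normalized counts before culture were 312, 364, 462, 251 and 431 in replicates 1 to 5. After culture they were 189.9, 227, 191 and 171 in replicates 1 to 4. Every cultured sample was below every uncultured one, although the gap between 227 and 251 was small beside the spread before culture. Means were 364 ± 86.0 and 195 ± 23.6 (SD), so that the log2 value fell by 0.87 (SE 0.167; limma, adjusted p = 4.08e-04). Gm48124, an antisense gene that overlaps Aldh1a2, was at a normalized count of 5.3 or less in every sample.

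Aldh1a1 encodes a second retinal dehydrogenase, which is widespread in epithelia, and had a much larger fall. Before culture the counts were 293, 325, 385, 375 and 263, and after culture 17.7, 28.1, 54.6 and 46.4. The highest cultured sample was thus well below the lowest uncultured one. The mean went from 328 ± 52.1 to 36.7 ± 16.8 (SD), a fall of the log2 value (−3.24, SE 0.271; limma, adjusted p = 1.85e-07). The gene spans chromosome 19 from 20492715 to 20643465 on the plus strand (GRCm38). Windows of 50 bases shared with another gene make up 6.54% of its transcript, mainly with its close copy Aldh1a7, which went from 27.0 ± 7.32 to 4.84 ± 3.57 (SD), so a small part of the reads could belong to either gene. On the opposite strand it is overlapped by Gm6684, with at most 2 reads in any sample, and by C730002L08Rik, whose counts are not given here.

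Aldh1a3, the third retinal dehydrogenase gene (chromosome 7, 66390890 to 66427517, minus strand), was low and went the other way. Its counts were 28.6, 29.7, 83.0, 30.1 and 51.9 before and 129, 52.3, 123 and 69.9 after culture. The groups overlapped, because replicate 3 before culture was above replicates 2 and 4 after culture. The log2 fold change was 1.08 (SE 0.352, limma adjusted p = 0.0145). Without replicate 1 after culture the change was 0.90 and did not pass (0.0558), nor did it without a filter on low values (0.104), in a range of adjusted p from 0.00230 to 0.104 over its 22 alternatives.

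Compared per kilobase of the longest transcript, the 3 dehydrogenase genes also changed in their proportions. Aldh1a2 and Aldh1a1 stood at 161 ± 38.0 and 139 ± 22.1 normalized counts per kb before culture, with overlapping ranges, and Aldh1a3 at 13.0 ± 6.84 (SD). After culture Aldh1a2 was at 86.1 ± 10.4, Aldh1a3 at 27.2 ± 11.1 and Aldh1a1 at 15.6 ± 7.14 (SD), and the ranges of Aldh1a3 and Aldh1a1 overlapped. Aldh1a2 made up 51.1 ± 7.26% of the sum of the 3 genes before and 67.0 ± 8.36% after culture (SD), with overlapping ranges of 39.8 to 60.1% and 58.9 to 78.8%. Aldh1a1 went from 45.0 ± 7.97% to 12.1 ± 5.41% of that sum and Aldh1a3 from 3.99 ± 1.44% to 20.9 ± 7.63% (SD), neither with any overlap. The summed level per kb went from 313 ± 47.9 to 129 ± 11.3 (SD). These proportions are a description of levels and were not tested.

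Upstream of the dehydrogenases, neither gene for the interconversion of retinol and retinal passed the threshold. Rdh10 encodes the main retinol dehydrogenase of retinoic acid synthesis (chromosome 1, 16105774 to 16133734, plus strand). Its counts ran from 179 to 242 before and from 209 to 286 after culture, and its rise in log2 value of 0.15 (SE 0.132) did not pass the threshold (limma adjusted p = 0.337). It passed as a rise under quantile normalization, at 0.35 (0.0258, in a range up to 0.962 over its 22 alternatives).

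Dhrs3 encodes the reductase that turns retinal back into retinol and is itself known to be induced by retinoic acid (chromosome 4, 144892827 to 144928209, plus strand). It was abundant, with counts of 2778, 2668, 2688, 1539 and 2757 before and 2075, 2466, 1424 and 2269 after culture. Replicate 4 was far below the other 4 samples before culture, replicate 3 was the lowest after culture, and the groups overlapped. The log2 fold change of −0.27 (SE 0.186) did not pass (limma adjusted p = 0.213). Without replicate 4 before culture, the library that stood apart in GC trend, it was −0.43 and passed (0.0119). It also passed with a block on the library numbers, a fit that leaves out replicate 2 before culture (−0.23, 0.0124). Without replicate 3 after culture, Dhrs3 was at −0.10 and did not pass (0.610). That library had the most negative GC trend of the cultured samples (−0.0817 per 10 percentage points). Over the 22 alternatives the adjusted p of Dhrs3 ran from 0.0119 to 0.870.

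**Figure D2:**
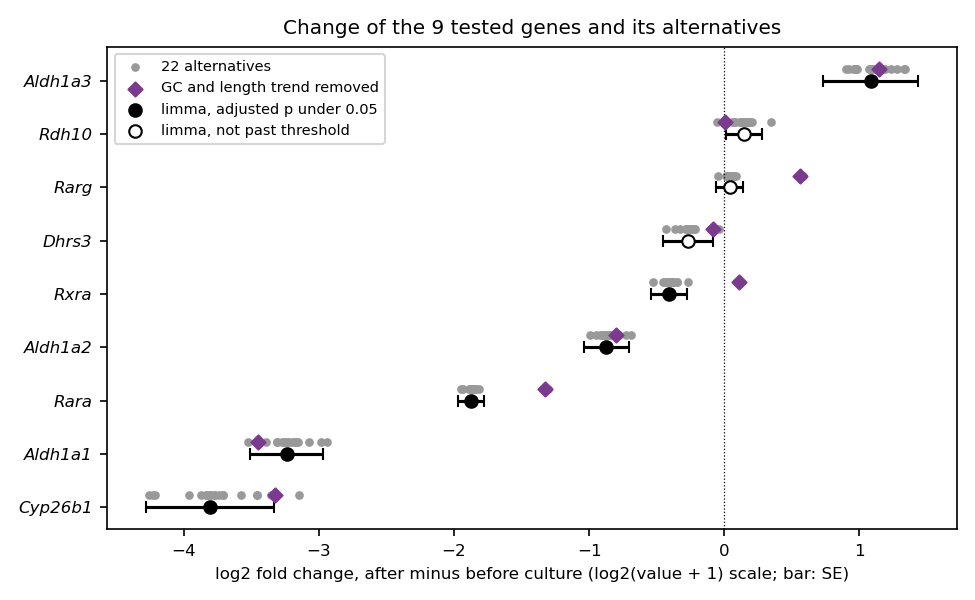
Log2 fold change (after minus before culture, log2(value + 1) scale) of the 9 tested genes, with the limma estimate and its SE as circles with bars, 22 alternative analyses as grey points and the fit with the GC and length trend removed as a diamond. Cyp26b1, Aldh1a1, Rara and Aldh1a2 stay left of 0 throughout. The diamonds lie right of the circles for 7 of the 9 genes, all but Aldh1a1 and Rdh10, and that of Rxra (0.11) is on the other side of 0.

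Among the 3 receptor genes, Rara had the largest fall. It encodes retinoic acid receptor alpha, the main RAR of blood cells, and spans chromosome 11 from 98927818 to 98974942 on the plus strand. Counts before culture were 7224, 6964, 7760.2, 5784 and 7479, and after culture 1918, 2158, 1679 and 1909.7. The cultured samples lay close together and far below the lowest uncultured sample. The log2 fold change was −1.88 (SE 0.0960, limma adjusted p = 1.41e-09), from a mean of 7042 ± 763 to 1916 ± 196 (SD). With the trend of each sample over GC content and length removed it was −1.32, still past the threshold. GC makes up 59.2% of its longest transcript. Gm22061, whose counts are not given here, overlaps Rara on the same strand.

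Rarg, for retinoic acid receptor gamma (chromosome 15, 102234938 to 102257517, minus strand), averaged 1169 ± 154 before and 1194 ± 48.5 after culture (SD). The uncultured samples ran from 913 to 1317 and the cultured ones from 1155 to 1260.5, so the groups overlapped. Its log2 fold change of 0.04 (SE 0.0990) did not pass (limma adjusted p = 0.736), with a range of −0.046 to 0.086 when 1 sample was left out. With the GC and length trend removed, Rarg passed as higher (0.56, adjusted p = 1.20e-05, in a range up to 1.0 over its 22 alternatives), and 58.8% of its transcript is GC. Rarb, the third RAR gene and a classical retinoic acid target, was low and did not pass (86.7 ± 14.8 and 68.3 ± 9.21, log2 fold change −0.33, adjusted p = 0.112).

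Rxra encodes the RXR through which RARs bind DNA (chromosome 2, 27676440 to 27762957, plus strand). Its counts were 3956, 4503, 3933, 3372 and 3677 before and 2758, 3786, 2198 and 3172 after culture. Replicate 2 after culture lay within the range before culture and the other 3 cultured samples lay below it. The log2 fold change was −0.41 (SE 0.133, limma adjusted p = 0.0152). This call ended without a filter on low values (0.110) and with the GC and length trend removed, where the change was 0.11 (adjusted p = 0.394), in a range from 0.00147 to 0.397 over its 22 alternatives. Rxrb, the other RXR gene with an appreciable level, fell from 1526 ± 268 to 775 ± 57.1 (SD, log2 fold change −0.96, limma adjusted p = 1.54e-05). GC makes up 61.4% of its longest transcript, and its change with the GC and length trend removed is not given here. Rxrg had at most 3 reads in every sample.

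Rara held 83.1 ± 0.280% of the RAR level per kb before culture and 56.9 ± 2.72% after it (SD), and Rarg 15.8 ± 0.440% and 40.8 ± 2.38% (SD). Both shares were separate between the groups, with Rara at 82.7 to 83.4% in the 5 uncultured samples and 54.3 to 60.7% in the 4 cultured ones. Per kb, Rara was the highest of the 10 genes before culture, at 2081 ± 225, followed by Dhrs3 (1064 ± 227), Rxra (793 ± 85.0) and Rarg (396 ± 52.1) (SD). After culture Dhrs3 (881 ± 193), Rxra (607 ± 137) and Rara (566 ± 57.8) came first with ranges that overlapped between neighbours, ahead of Rarg at 404 ± 16.4 (SD). Cyp26b1 was at 40.9 ± 28.4 before and 2.18 ± 0.606 after culture (SD), and in both groups its range overlapped that of Crabp2, its neighbour in this order.

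**Figure D3:**
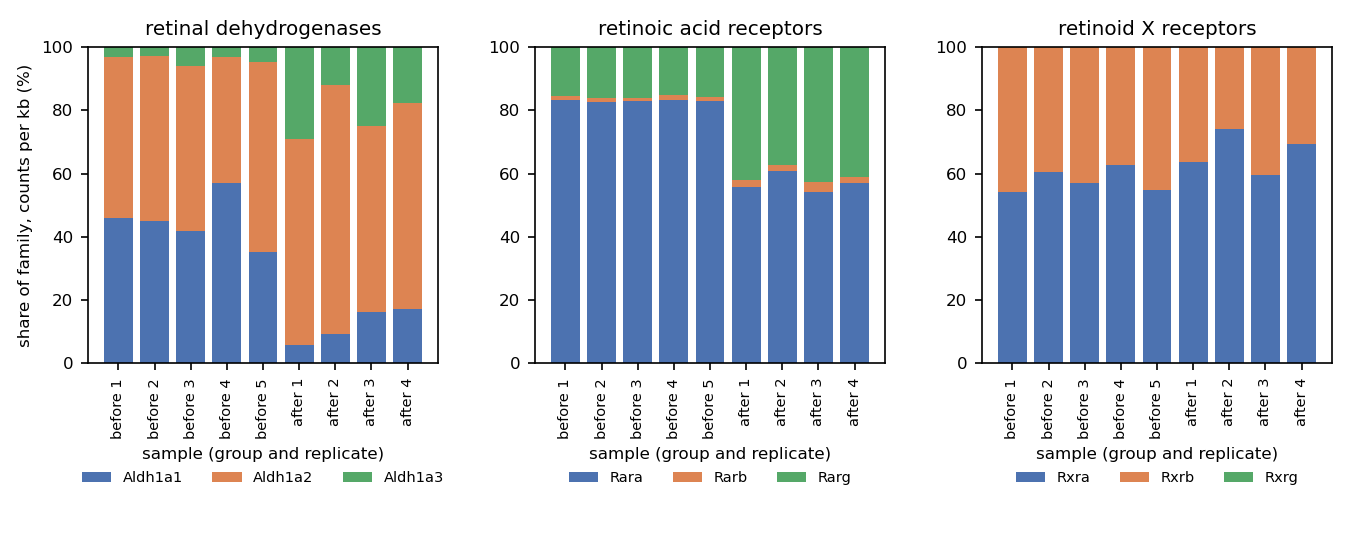
Share of each family's summed level per kilobase of transcript (percent, stacked to 100) for the retinal dehydrogenases, the RARs and the RXRs in each sample, labelled by group and replicate. Rara shrinks from about 83.1 to 56.9% of the RAR level while Rarg takes a larger share, and Aldh1a1 shrinks from 45.0 to 12.1% of the dehydrogenase level.

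Of the carriers of retinoic acid, Crabp2 was lower and Fabp5 higher after culture. Crabp2 encodes the cellular binding protein that brings retinoic acid to RARs (chromosome 3, 87948666 to 87953376, plus strand). It had 8 to 20 reads per sample before and 2 to 8 after culture. Its normalized counts were 11.4, 11.1, 8.98, 16.7 and 19.7 before and 3.53, 6.07, 6.37 and 1.52 after culture, without overlap. Its mean lay under the filter, and in the fit without a filter its log2 fold change was −1.51 (SE 0.416, adjusted p = 0.0292). Fabp5 encodes a fatty acid binding protein that can bring retinoic acid to the receptor encoded by Ppard. It rose from 1935 ± 311 to 11317 ± 2986 (SD, log2 fold change 2.52, adjusted p = 1.78e-08), and the cultured samples at 7684 to 14991 were all above the uncultured ones at 1431 to 2192. Of Fabp5 transcript windows, 4.42% occur in other genes. Ppard itself did not pass (1599 ± 146 and 1752 ± 244, adjusted p = 0.285).

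The largest fold change among the 10 genes was that of Cyp26b1, on the side of degradation. It encodes a hydroxylase that inactivates retinoic acid and is induced by it in several cell types (chromosome 6, 84571414 to 84593908, minus strand). Its counts before culture varied widely, at 162, 389, 193, 41.0 and 134, with replicate 4 lowest. After culture they were 9.72, 13.6, 8.19 and 7.60, from 9 to 18 reads. The mean went from 184 ± 128 to 9.79 ± 2.72 (SD). The groups did not overlap despite the wide spread before culture, and the log2 fold change was −3.81 (SE 0.476, limma adjusted p = 9.30e-06). Over its 22 alternatives the change ran from −4.26 to −3.15 and passed in each.

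Cyp26a1, the related hydroxylase gene that responds most directly to retinoic acid in many tissues, had normalized counts of 6.67, 16.1, 23.6, 5.86 and 14.3 before culture. After culture 1 read was found in 4 libraries, in replicate 3. Its mean lay under the filter, and without a filter its adjusted p was 8.60e-04. Cyp26c1, the third gene of this family, went from 6.01 ± 3.09 to 21.3 ± 3.61 (SD, log2 fold change 1.78, adjusted p = 0.00124), also at few reads.

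Sequence windows from RefSeq (GRCm38.p6, 250 bases before to 50 after a transcript start) were searched for the direct repeat that RAR and RXR bind. The core motif was AGGTCA. The variant GGGTCA was also accepted. So was AGTTCA, and so was the variant GGTTCA. A match was 2 motifs in the same orientation with 1, 2 or 5 bases between them, on either strand. Of 32851 windows, 0.222% held a repeat with a spacing of 1, 0.268% of 2 and 0.0974% of 5. For the 10 genes, 15 windows of 7 genes were given and 0 held a repeat. Among 76 of these and related genes with a window, a spacing of 5 was found in Cyp26a1 and Rarb and a spacing of 1 in Bco1. Both repeats with a spacing of 5 are shown because the counts of these genes are given here, together with a Rara window that holds 4 single motifs. Capitals mark motifs, those of the repeat in Cyp26a1 and Rarb and all single ones in Rara.
Cyp26a1, chr19:37697558-37697857, plus strand: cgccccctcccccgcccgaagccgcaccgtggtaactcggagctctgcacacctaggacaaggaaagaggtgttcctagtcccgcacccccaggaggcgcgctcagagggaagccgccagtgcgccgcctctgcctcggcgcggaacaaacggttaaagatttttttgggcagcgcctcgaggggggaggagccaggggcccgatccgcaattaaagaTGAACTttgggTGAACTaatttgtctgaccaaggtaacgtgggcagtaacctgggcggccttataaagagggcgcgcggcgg
Rarb, chr14:16575427-16575726, minus strand: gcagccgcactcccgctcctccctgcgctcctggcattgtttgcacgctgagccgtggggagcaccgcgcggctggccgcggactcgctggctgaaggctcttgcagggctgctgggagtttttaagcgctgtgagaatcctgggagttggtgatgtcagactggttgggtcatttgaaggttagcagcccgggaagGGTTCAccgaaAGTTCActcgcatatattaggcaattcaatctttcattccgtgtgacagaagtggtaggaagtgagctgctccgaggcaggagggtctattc
Rara, chr11:98939461-98939760, plus strand: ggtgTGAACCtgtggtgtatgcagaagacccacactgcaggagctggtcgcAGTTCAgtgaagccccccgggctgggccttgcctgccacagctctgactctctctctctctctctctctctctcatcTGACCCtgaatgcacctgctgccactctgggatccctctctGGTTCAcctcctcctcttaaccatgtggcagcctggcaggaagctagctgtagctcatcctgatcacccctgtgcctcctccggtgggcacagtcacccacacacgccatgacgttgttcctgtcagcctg
The Cyp26a1 repeat lies on the opposite strand, 32 bases before the start, and that of Rarb on the gene's strand, 53 bases before it. Single motifs are common, in 43.7% of all windows and in 5 of the 15 windows of the 10 genes. The Rara window shown holds the most motifs of the windows of that gene: another holds 1 and the rest hold none. Both repeats have the spacing of 5 and, read on their own strand, both hold the motif AGTTCA. Cyp26a1 was nearly unread after culture, whereas Rarb did not pass the threshold. Whether the repeats bear on these counts was not tested.

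Other genes known to respond to retinoic acid, from a list of 18 of which 14 were tested, moved in both directions, with 8 lower, 2 higher and 4 not past the threshold. The list median was −1.08. It shares Cyp26b1, Dhrs3 and Crabp2 with the 10 genes. Tgm2, a transglutaminase gene, fell from 10781 ± 2886 to 3030.3 ± 952 (SD, log2 fold change −1.84), and Hic1, a transcriptional repressor gene, from 548 ± 159 to 119.7 ± 30.4 (−2.16). Ret, a receptor tyrosine kinase gene, fell (−1.61), as did Rarres2, which encodes the chemoattractant chemerin (−2.42). Asb2, for a ubiquitin ligase subunit, rose from 378 ± 82.5 to 1103 ± 53.6 (SD, 1.58). Stra6, the gene of a retinol uptake receptor, went from 6.98 ± 5.37 to 38.1 ± 22.1 (SD, 2.48, adjusted p = 0.00842) with overlapping groups, and did not pass without a filter (0.0869).

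Genes for uptake and storage of retinoids were also divided. Of 16 listed, 10 were tested, with 6 lower and 3 higher (median −0.75). Lrat, which encodes the enzyme that esterifies retinol for storage, fell from 32.0 ± 14.0 to 2.30 ± 1.62 (SD, log2 fold change −3.42, adjusted p = 4.51e-05), and after culture it had 0 to 5 reads per sample. Rbp4, for the retinol carrier of plasma, had 13.8 ± 4.01 before and 2.79 ± 1.31 after culture (SD) and was not tested. Dgat1 (−2.19), Scarb1 (−1.86) and Bco2 (−2.52) fell as well. Lpl (2.35) and Cd36 (1.50), genes of general lipid uptake, rose.

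Of 19 further genes for retinol and retinal oxidoreductases, 13 were tested, with 5 higher and 4 lower (median 0.087). Adh1, a cytosolic alcohol dehydrogenase gene, fell from 241 ± 57.1 to 16.4 ± 3.47 (SD, log2 fold change −3.79), and Rdh12 from 294 ± 54.1 to 52.6 ± 11.9 (SD, −2.47). Rdh5 (1.23) and Rdh13 (1.02) rose, with 16.3% of the windows of Rdh5 shared, most of all with Bloc1s1. Dhrs9 (739 ± 150.3 and 704 ± 294, SD) and Rdh11 (566 ± 49.4 and 602 ± 66.2, SD) did not pass.

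Partners of RXR and coregulators of nuclear receptors completed the comparison. Of 9 tested partner genes, 5 were lower and 2 higher. Nr4a1, an orphan receptor gene of the immediate early class, fell most (−6.55), followed by Nr4a2 (−2.16) and Thra (−1.06). Nr1h3, for the oxysterol receptor LXR alpha, rose by 0.63 with overlapping groups (limma adjusted p = 0.0103) but did not pass without a filter (0.0822), and Pparg did not pass (542 ± 70.3 and 547 ± 17.2, SD). Of 13 coregulators, 5 were higher and 2 lower: the coactivator gene Ncoa2 rose (0.79) and the coactivator gene Ncoa1 fell (−0.92), while the corepressor gene Ncor1 did not pass (−0.04). Across all related lists, 68 of 88 genes were tested, of which 27 were lower and 22 higher, beside 34.6% lower and 34.2% higher among all tested genes. This balance turned with the GC and length trend removed, with 24 lower and 27 higher, and was even at 25 and 25 with upper quartile scaling or quantile normalization.

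A further 10 genes, mostly of signals known to induce Aldh1a2 in dendritic cells, were listed. All were tested, with 4 higher, 4 lower and 2 not past the threshold. The receptor for GM-CSF, a main inducer, was divided between its chains: Csf2ra fell from 11213 ± 2220 to 5255 ± 810.4 (SD, log2 fold change −1.08) and Csf2rb rose from 27174 ± 1674 to 84288 ± 1493 (SD, 1.64). Of Csf2rb windows, 18.4% are shared, most of all with Csf2rb2, which also rose (2.36). Tlr2 (−1.49), Irf4 (−0.98) and Il4ra (−0.51) fell and Ctnnb1 (1.17) rose. Csf2, the gene of GM-CSF itself, was low and did not pass (34.7 ± 15.5 and 52.2 ± 8.70, SD, limma adjusted p = 0.0708). Nor did Il4 (17.2 ± 4.50 and 21.1 ± 5.72, SD, limma adjusted p = 0.419). Itgb8, the gene of an integrin chain that activates latent TGF-beta, rose from 154 ± 39.1 to 2161 ± 668 (SD, 3.78). Its place in the list does not mean that it induces Aldh1a2.

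**Figure D4:**
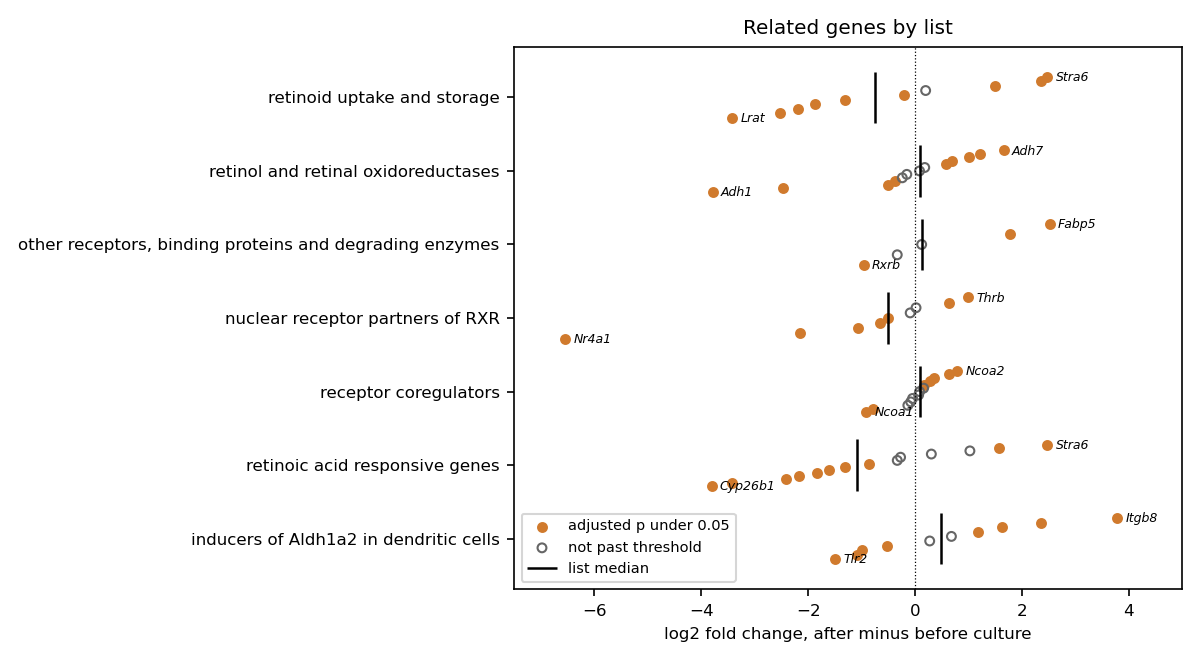
Log2 fold change (after minus before culture) of each tested gene of the 7 related lists, 1 point per gene, filled where the limma adjusted p is under 0.05, with a vertical line at the list median and the outermost genes named. Lists spread to both sides of 0, with medians from −1.08 for retinoic acid responsive genes to 0.48 for the list labelled inducers of Aldh1a2.

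Genes whose levels followed those of a named gene most closely were found by the root mean square difference of log2(value + 1), centred on each gene's mean, over the 9 samples. For Aldh1a2 the nearest was Bcl3, which encodes an atypical IkB protein, at a difference of 0.0824, followed by Morrbid (0.126) and Rrp12 (0.130). Nearest to Rara were Midn (0.0544), Cfap43 (0.0769) and Lrp5 (0.0826), and nearest to Aldh1a1 were Cdh4 (0.200), Gm11545 (0.220) and Hspa12b (0.229). Likeness was much lower for Cyp26b1, whose nearest genes, H4c6, Arsi and Slc13a3, differed by 0.589 to 0.598, and 0 genes were within 0.3 of it. Aldh1a3 was nearest to Gm13561 (0.253), Trgv6 (0.309) and 1700047K16Rik (0.328), all at low levels. Nearest to Rxra were Tnfrsf21 (0.0664), Mid1ip1 (0.0698) and Rpn2 (0.0803). For Rxra, 3423 genes were within 0.3, for Aldh1a2 1266 and for Rara 537, so that nearness to these profiles is common. For Aldh1a1 17 genes were within 0.3, and 1 for Aldh1a3.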

How the data were processed

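RNA of 9 samples was measured by sequencing. Replicates are numbered by sample title, and replicates 1 to 4 after culture are the libraries named A1, A3, A4 and A5. The authors deposited a table of signal values, normalized read counts at or above 0, for 49317 rows. Per the submitters' processing notes, DESeq2 and the build GRCm38 were used, without roles or versions. The aligner, the counting tool, strandedness, the annotation and filters are not given in the sources used here. All values (100%) were whole multiples of 1 step per sample (tolerance 1e-06 reads), and the steps matched median-of-ratios size factors, so whole reads were recovered. On these reads edgeR 4.0.16 called 12562 genes and DESeq2 1.42.0 called 12663, against 12524 in limma. The 3782 rows without a symbol held 9.11 ± 1.64% of reads before and 4.57 ± 0.663% after culture (SD) and were left out.

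Group was the only term of the limma fit (limma 3.58.1, R 4.3.3, mean-variance trend, two-sided, pseudocount 1, minimum mean 10). The pseudocount shrinks the log2 fold changes of low genes. Folds are ratios of group means, which can differ from the log2 fold changes in either direction. Reads carry no molecular identifiers here, so the spread between samples was used throughout. Lengths, GC content, positions and shared 50-base windows came from GENCODE M21 (GRCm38), which may not be the authors' annotation, and GC and length were known for 96.5% of tested genes. Of 228 listed genes, 1 was not matched. Antisense and overlapping genes cannot be told apart without strand.

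The 10 genes and all lists were chosen with earlier results of these data known, so counts over lists describe and do not support. Genes named are the 10, 14 others fixed by name, up to 4 higher and 4 lower per related list among those with a mean of at least 100, up to 2 leading markers per list and the 3 nearest profiles. Some genes that this rule names are not reported here. Bco1, Ppard, Cyp26c1 and the named genes with no call or a lower mean or rank were chosen after their values were seen. Alternatives were other pseudocounts, filters, scalings and count models, a replicate block, removal of each sample's trend over GC and length, and leaving out each sample.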

Additional observations from a re-analysis of the deposited data

Results flagged for a closer look

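For Dhrs3, replicate 4 before culture was at 1539, below the other 4 uncultured samples by 0.911 of the range of the group, where 0.71 is the critical value for 5 samples. Among the 20 sets of values looked at (10 genes in 2 groups) this was the 1 that stood out, and chance flags about 1 in 20. The same library had the most negative trend over GC content (−0.212 per 10 percentage points) and the lowest Rara, Rarg, Rxra, Aldh1a2 and Cyp26b1 values before culture. Whether this trend bears on those values was not tested in that library alone.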

How the results depend on the processing

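Aldh1a1, Aldh1a2, Rara and Cyp26b1 kept their direction and their call in all 22 alternatives. The calls of Aldh1a3, Rxra, Rarg, Rdh10, Dhrs3 and Crabp2 depended on the setting. The number higher was 0 without a filter on low values, 2 with quantile normalization, 2 with the GC and length trend removed and 2 with that correction and the replicate block together. It ran from 0 to 1 when 1 sample was left out, and was 0 without replicate 1 after culture. The number lower was 4 with the GC and length trend removed, with or without the block, where Rxra was lost. It was 5 without a filter, where Rxra was lost (0.110) and Crabp2 passed (0.0292). It was 6 without replicate 4 before culture, where Dhrs3 passed, and without replicate 1 or 4 after culture, where Crabp2 entered the test and passed (0.0145 and 0.0184). With the GC and length trend removed Rxra was at 0.11, and at 0.093 with the block added, where Rdh10 was at −0.056. For Rarg, leaving out 1 sample gave −0.046 to 0.086, the lowest value without replicate 4 before culture. The cause of these shifts was not tested.

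The labels do not say that equal numbers mark a shared mouse or day, and the samples were not treated as paired. Deviations from the group means correlated by −0.213 to 0.0807 for equal numbers in the titles and by 0.0447 to 0.349 for equal numbers in the library names, and 3 of 4 uncultured samples correlated best with their own library number, a hint from the data and not from the design. A replicate block by title number, which leaves out replicate 5 before culture, gave 11674 called genes, against 12144 in the same samples with no block. With that block 1 gene was higher and 5 lower of the 10. A block by library number, without replicate 2 before culture, gave 12859, against 11954 in the same samples with no block. With it 1 gene was higher and 6 lower, the added gene being Dhrs3.

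Without a minimum mean 12571 genes were called, and 9925 with a minimum of 50. Leaving out 1 sample gave 11770 to 12668 called genes, 5 to 6 of the 10 genes lower and 21 to 24 related genes higher and 24 to 27 lower. With the GC and length trend removed 27 related genes were higher and 24 lower, and 26 and 21 with the block added. With few reads, Crabp2, Cyp26a1 and Lrat after culture are near the floor of 3 reads, where the size of a change cannot be read.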
